A study of Caenorhabditis elegans with 6 samples.

Results

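The genes described here are the spermatogenesis-defective (*spe*) genes of *C. elegans* together with a family of small sperm peptides, the nematode-specific peptides of group D (*nspd*). Members were all genes of the count table whose WBcel235 symbol is *spe-* or *nspd-* followed by a number, plus *fer-1*, *gsp-3* and *gsp-4*. This gave 42 genes of 46661 in the count table: 29 *spe* genes, 10 *nspd* genes and the 3 named ones. Of these, 41 had enough counts to be tested. The study asked how loss of FOLR-1, the worm folate receptor homolog, affects gene expression, and compared the wild-type strain N2 with *folr-1(syb4116)*. This CRISPR allele carries an early premature stop codon and is a single allele in the N2 background. Synchronized L1 larvae of either strain were plated on HT115 carrying the empty RNAi vector, kept at 20 °C and collected whole at the L4 stage. There were 3 biological replicates of each strain, each 1 library, here called N2 and mutant replicates 1 to 3.

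Hermaphrodites of *C. elegans* make sperm during the L4 stage and then switch to making oocytes for the rest of their life. Spermatocytes load major sperm protein into a specialised compartment, the fibrous body-membranous organelle, and shed unneeded contents into a residual body. The round spermatids are later activated, when the membranous organelles fuse with the cell surface and a pseudopod forms, and only activated sperm can bind and fuse with an oocyte. Mutants in many *spe* and *fer* genes fail at one of these steps.

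The libraries held between 21646678 and 25946226 counts. Levels are given as CPM, the count relative to the library total after scaling by TMM factors, and as the deposited FPKM values where genes of different length are compared. The mutated gene *folr-1* had 32, 37 and 59 counts in N2 and 14, 11 and 7 in the mutant, and was lower in the mutant (log2 fold change -2.02 ± 0.31 SE, adjusted p = 4.99e-04, Benjamini-Hochberg over 15432 genes, quasi-likelihood test of edgeR). A call below means an adjusted p under 0.05 in this test. Since whole animals were sequenced, fewer sperm or spermatocytes and less RNA in each of them cannot be told apart.

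The sperm genes were slightly lower in the mutant as a list, and 5 of the 41 tested members fell: *fer-1*, *spe-15*, *nspd-7*, *spe-6* and *spe-9*. None rose. Across all tested genes, 3.32% were called lower and 3.64% higher, or 6.95% in either direction. The median log2 fold change of the members was -0.13, or 8.73% less RNA than in N2, where the median over all tested genes was 0.0028. The fold change was below 0 for 35 of 41 members and for 49.3% of all tested genes. The 3 mutant libraries were all below the 3 N2 libraries for 18 members, a pattern seen in 12.9% of all tested genes, and all above them for 0 members, against 12.3% of tested genes. At an unadjusted p under 0.05, edgeR gave 16 members as lower, against 9.91% of tested genes, and 0 as higher, against 10.3%. The members' changes were small: 19 lay within 1.1-fold of the N2 level either way, 4 were more than 20% below it and 0 were more than 25% above it.

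**Figure D1:**
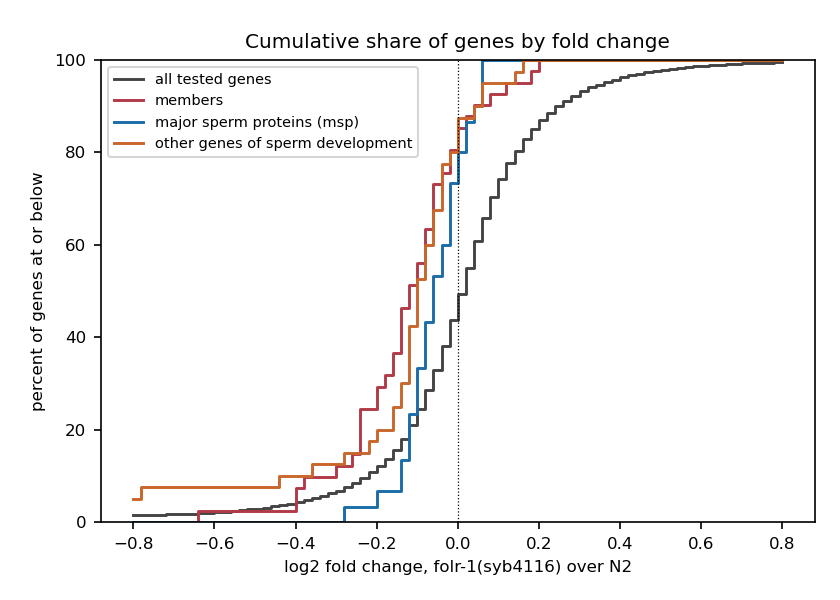
Cumulative share of genes (y axis, percent) at or below each log2 fold change of mutant over N2 (x axis), for all tested genes, the 41 tested members, the major sperm protein genes and the other genes of sperm development. Around the middle the curve of the members lies left of that of all tested genes, with medians of -0.13 and 0.0028. In the far lower tail it does not, with 2.44% of members and 2.85% of all tested genes at or below -0.5.

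The summed level of all 42 members was 1383, 1385 and 1431 CPM in the N2 libraries and 1291, 1260 and 1287 CPM in the mutant libraries. The strains did not overlap, and the mutant sum was 0.914 of the N2 sum. The members took between 0.125% and 0.145% of all counts in a library.

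**Figure D2:**
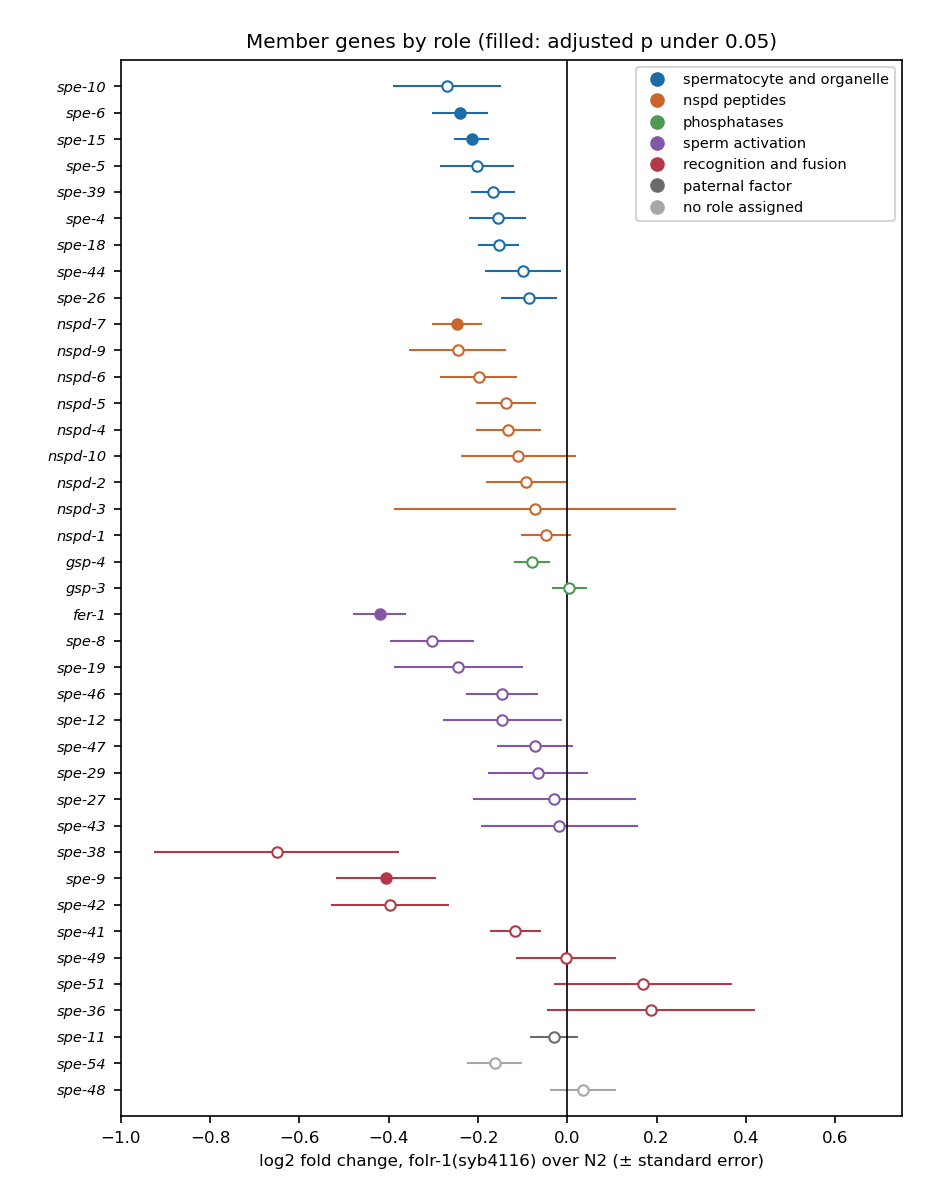
Log2 fold change of mutant over N2 (x axis) with its standard error for 39 of the 41 tested members, by role. Filled points are the 5 called members, all left of 0. Of the 4 points right of 0, the highest is *spe-36* at 0.19, and none is called.

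Of the genes that act in the spermatocyte and in its organelle, 2 of 10 fell, 0 rose and 9 had a fold change below 0, with a median of -0.16. Over all tested genes, 3.32% were called lower, 3.64% higher and 49.3% were below 0. The counts of each small group below are read beside the same shares. *spe-15* encodes a myosin VI that moves components to the residual body. It was measured at 147, 153 and 156 CPM in the N2 libraries and at 133, 132 and 128 CPM in the mutant libraries. All mutant values were below all N2 values, with a log2 fold change of -0.21 ± 0.039 SE (adjusted p = 0.00235, edgeR). It remained called when any 1 library was left out, with fold changes between -0.24 and -0.20. A correction for gene length made its log2 fold change smaller, at -0.17 (adjusted p = 0.0136, edgeR). *spe-6* encodes a casein kinase 1-like protein needed to build the fibrous bodies and to hold back activation. It was at 27.8, 28.6 and 28.4 CPM in N2 and at 24.8, 22.7 and 24.3 CPM in the mutant, again without overlap (log2 fold change -0.24 ± 0.062 SE, adjusted p = 0.0266, edgeR). The call of *spe-6* stood only without mutant replicate 1. Without N2 replicate 1, 2 or 3 its adjusted p was 0.0515, 0.0926 and 0.0672, and without mutant replicate 2 or 3 it was 0.112 and 0.0592 (edgeR), with fold changes between -0.27 and -0.20.

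The most abundant transcript of these 10 genes was *spe-18*, whose product is needed for major sperm protein to gather in the fibrous body. Its FPKM was 106 ± 4.15 in N2 and 94.7 ± 5.04 in the mutant (SD, n = 3). In CPM it was 134, 127 and 125 in N2 against 121, 117 and 109 in the mutant, without overlap. Its log2 fold change was -0.15 ± 0.046 SE with an adjusted p of 0.0536 (edgeR), just above the threshold, and without mutant replicate 1 it was called (adjusted p = 0.0385, edgeR). A correction for gene length also brought it under the threshold (adjusted p = 0.0313, edgeR). *spe-39*, whose product takes part in vesicle sorting, was as close to the threshold (log2 fold change -0.17 ± 0.049 SE, adjusted p = 0.0511, edgeR). Other uncalled genes were *spe-44*, a transcription factor of the spermatocyte programme, *spe-4*, a presenilin, *spe-5*, a vacuolar ATPase subunit, *spe-10*, a palmitoyltransferase, and *spe-26*, a kelch-repeat protein. Their log2 fold changes ran from -0.27 for *spe-10* to -0.086 for *spe-26*. Annotation places R10H10.3, which had 1698 to 2026 counts and was not called, on the opposite strand over the whole of *spe-26*. The sources used here leave the strandedness of the libraries and of the counting unstated, so reads of these overlapping genes may not be separable.

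**Figure D3:**
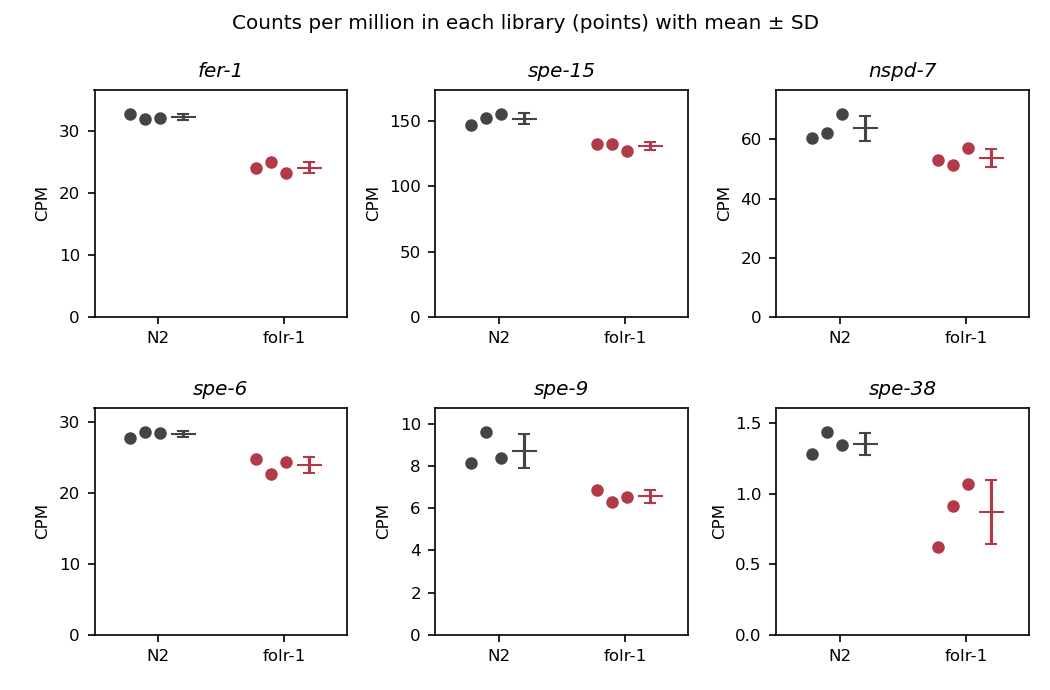
CPM (y axis, from 0) of the 5 called members and of *spe-38* in each library (points) with mean ± SD (n = 3 per strain) beside them. In all 6 panels the mutant libraries lie below the N2 libraries. For *fer-1* they lie between 23.3 and 24.99 CPM, against 31.9 to 32.8 CPM in N2.

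Of the genes of sperm activation, 1 of 9 fell, 0 rose and all 9 had a fold change below 0, with a median of -0.15. The called gene was *fer-1*, a ferlin needed for the membranous organelles to fuse with the cell surface. It had 32.8, 31.9 and 32.1 CPM in the N2 libraries and 24.1, 24.99 and 23.3 CPM in the mutant libraries. The spread within each strain was far below the distance between them, and *fer-1* fell by 25.3% (log2 fold change -0.42 ± 0.059 SE, adjusted p = 2.25e-04, edgeR). It had the lowest adjusted p of all members and remained called without any 1 library, with fold changes between -0.45 and -0.40. *fer-1* is longer than 98.9% of the tested genes, at 6245 bases in the FPKM lengths. A correction for gene length made its log2 fold change smaller, at -0.34, and it remained called (adjusted p = 0.0014, edgeR). *fer-1* was not called with limma on log2(FPKM + 1) or log2(FPKM + 0.1) (adjusted p = 0.0574 and 0.06, limma).

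The kinase gene *spe-8* heads the pathway that passes the activation signal into the spermatid. It was at 18.8, 16.7 and 16.6 CPM in N2 and at 15.6, 14.2 and 12.3 CPM in the mutant, without overlap. Its log2 fold change was -0.30 ± 0.094 SE with an adjusted p of 0.0654 (edgeR), and without mutant replicate 1 it was called (adjusted p = 0.0353, edgeR). The other genes of the same pathway, *spe-12*, *spe-19*, *spe-27*, *spe-29* and *spe-43*, had log2 fold changes from -0.24 for *spe-19* to -0.018 for *spe-43*, and their standard errors were between 0.113 and 0.184. *spe-29* overlaps *gon-1* on the opposite strand by 117 bases, and *gon-1* had 2297 to 2729 counts and was not called. The transcript with the highest FPKM in this group was *spe-46*, at 28.9 ± 3.13 in N2 and 26.1 ± 2.03 in the mutant (SD, n = 3). In CPM it was 26.5, 28.2 and 32.6 in N2 and 28.7, 25.3 and 24.9 in the mutant, so the strains overlapped (log2 fold change -0.15 ± 0.080 SE, adjusted p = 0.329, edgeR). *spe-46* and *spe-47* are known from mutants whose spermatids activate too early, and *spe-47* had a fold change of -0.072.

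Of the genes for recognition of and fusion with the oocyte, 1 of 8 fell, 0 rose and 5 had a fold change below 0, with a median of -0.060. Their mean FPKM ran from 1.41 to 14.8, with a median of 2.64, and most of the least abundant members per length were among them. The called gene was *spe-9*, which encodes a sperm surface protein with EGF repeats. Its counts were 178, 214 and 212 in N2 and 176, 152 and 140 in the mutant, or 8.15, 9.61 and 8.38 CPM against 6.88, 6.30 and 6.51 CPM. The scaled values did not overlap (log2 fold change -0.41 ± 0.112 SE, adjusted p = 0.0363, edgeR). The call of *spe-9* stood only without N2 replicate 1. Without N2 replicate 2 or 3 its adjusted p was 0.174 and 0.0549, and without mutant replicates 1, 2 and 3 it was 0.0583, 0.109 and 0.0978 (edgeR). Its log2 fold change then ran from -0.44 to -0.33.

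The largest fitted fall of any member was that of *spe-38*, which encodes a multi-pass membrane protein of the sperm surface, and it was not called. Its counts were low, at 28, 32 and 34 in N2 and 16, 22 and 23 in the mutant. The libraries did not overlap, but the error was large (log2 fold change -0.65 ± 0.28 SE, adjusted p = 0.188, edgeR). *spe-42*, a transmembrane protein needed at the sperm-oocyte meeting, also missed the threshold (log2 fold change -0.40 ± 0.13 SE, adjusted p = 0.0846, edgeR). The most abundant gene here, the calcium channel gene *spe-41*, also called *trp-3*, had an FPKM of 15.4 ± 0.934 in N2 and 14.2 ± 0.570 in the mutant (SD, n = 3). Its log2 fold change was -0.12 ± 0.058 SE (adjusted p = 0.272, edgeR).

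The members with the highest fitted fold changes belonged to this group too, and none of them was called. *spe-36*, a secreted EGF-motif protein, had 30, 33 and 34 counts in N2 and 48, 39 and 27 in the mutant, so mutant replicate 3 was the lowest of all 6 libraries. Its log2 fold change was 0.19 ± 0.23 SE. *spe-51*, a secreted immunoglobulin-like protein, was at 0.17 ± 0.20. At these counts a change of such size was within the error. *spe-36* and *spe-38* overlap a neighbour on the same strand by 68 and 58 bases, and those neighbours, F40F11.3 and *impt-1*, had between 236 and 347 counts and were not called. *spe-36* also overlaps F12F6.1 on the opposite strand by 62 bases. F12F6.1 had 1494 to 1710 counts and was not called.

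**Figure D4:**
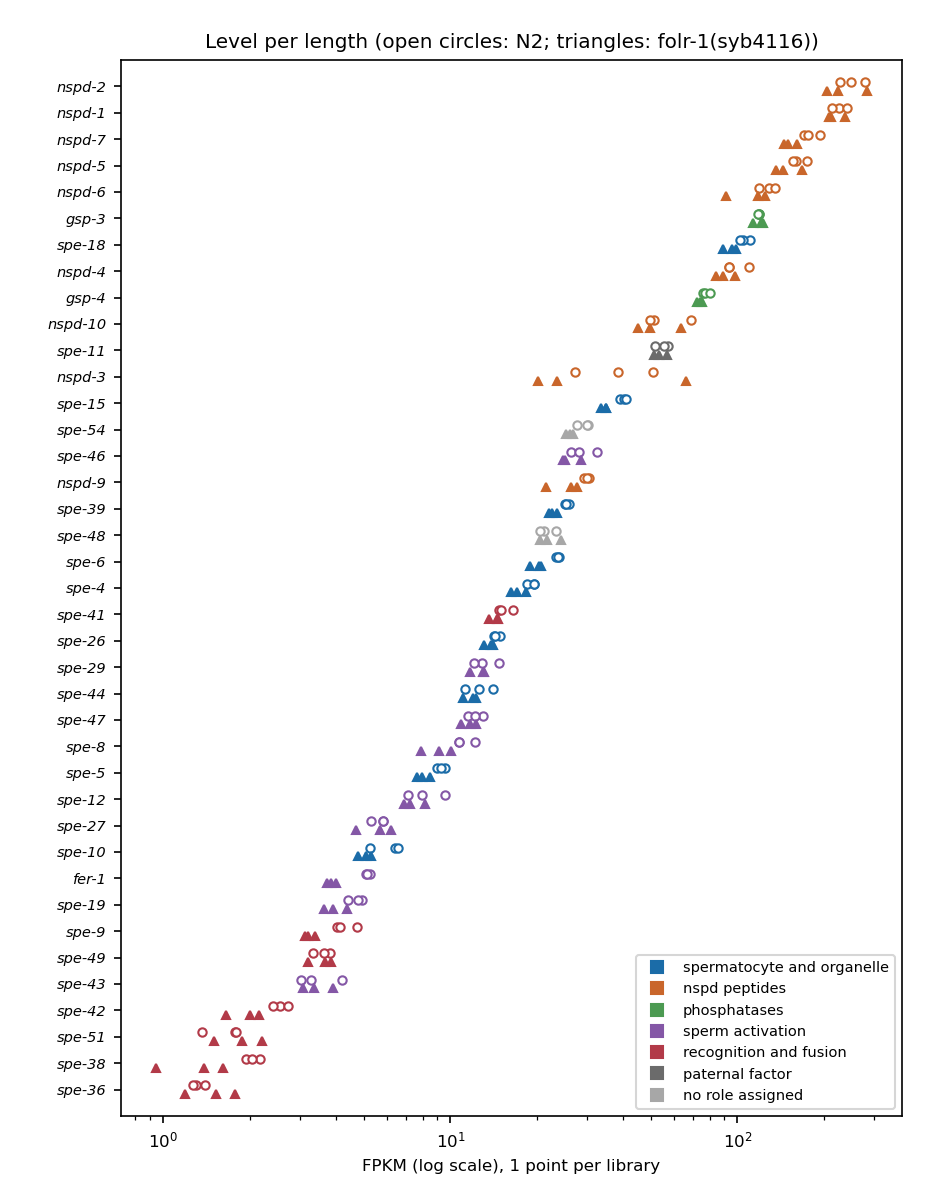
FPKM (x axis, log scale) of 39 of the 41 tested members in each library, ordered by mean. Open circles are N2, triangles the mutant and colours the role. The 5 highest members are *nspd* genes, and 6 of the 7 lowest, from 1.41 to 3.76 FPKM on average, are recognition and fusion genes.

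The phosphatase genes *gsp-3* and *gsp-4* encode near-identical sperm forms of protein phosphatase 1 that act in sperm meiosis and motility. *gsp-3* was at 125, 126 and 124 CPM in N2 and at 127, 129 and 120 CPM in the mutant, with a log2 fold change of 0.0049 ± 0.040 SE (adjusted p = 0.962, edgeR). *gsp-4* had a fold change of -0.079 ± 0.040 SE (adjusted p = 0.288, edgeR). Reads of such copies may be split uncertainly between them, and their summed counts gave -0.033 ± 0.038 SE (adjusted p = 0.689, edgeR). *spe-11*, whose product is carried by sperm and acts in the early embryo, was at 56.5, 55.0 and 51 CPM in N2 and at 56.0, 50.6 and 52.5 CPM in the mutant (log2 fold change -0.029 ± 0.054 SE, adjusted p = 0.827, edgeR). Each of these 3 transcripts differed between strains by less than 2 standard errors, although the libraries of *gsp-4* did not overlap. Of the members with no assigned role, *spe-54* was at 29.8, 29.6 and 27.5 CPM in N2 and at 26.4, 25.9 and 25.2 CPM in the mutant (log2 fold change -0.16 ± 0.062 SE, adjusted p = 0.139, edgeR), and *spe-48* had a fold change of 0.035.

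The *nspd* genes are short, with 213 to 222 exonic bases each in WBcel235, and encode small peptides associated with sperm. Of the 10 genes, *nspd-8* had 0 counts in every library and was not tested. Of the other 9, 1 fell, 0 rose and all 9 had a fold change below 0, with a median of -0.13. Per length they included the most abundant members, with a median FPKM of 107 over the family against 10.4 over the *spe* genes. The most abundant of all, *nspd-2*, had an FPKM of 252 ± 25.3 in N2 and 237 ± 39.9 in the mutant (SD, n = 3). Its log2 fold change was -0.093 ± 0.090 SE (adjusted p = 0.623, edgeR).

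The called gene was *nspd-7*, with 60.4, 62.2 and 68.6 CPM in the N2 libraries and 53.0, 51.3 and 57.1 CPM in the mutant libraries. The strains did not overlap, and the log2 fold change was -0.25 ± 0.056 SE (adjusted p = 0.0112, edgeR). The call was lost without N2 replicate 3 (adjusted p = 0.0572, edgeR) and without mutant replicate 2 (adjusted p = 0.0582, edgeR), with fold changes of -0.19 and -0.22. *nspd-5* had 55.1, 54.1 and 60.5 CPM in N2 and 49.8, 46.9 and 57.8 CPM in the mutant, with overlap. It was not called (log2 fold change -0.14 ± 0.068 SE, adjusted p = 0.266, edgeR), except without mutant replicate 3 (adjusted p = 0.0479, edgeR). The family members are closely related copies, so the split of reads between them is uncertain. Summed, they were at 390, 392 and 436 CPM in N2 and at 358, 348 and 406 CPM in the mutant, which overlapped, with a log2 fold change of -0.13 ± 0.055 SE (adjusted p = 0.179, edgeR).

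**Figure D5:**
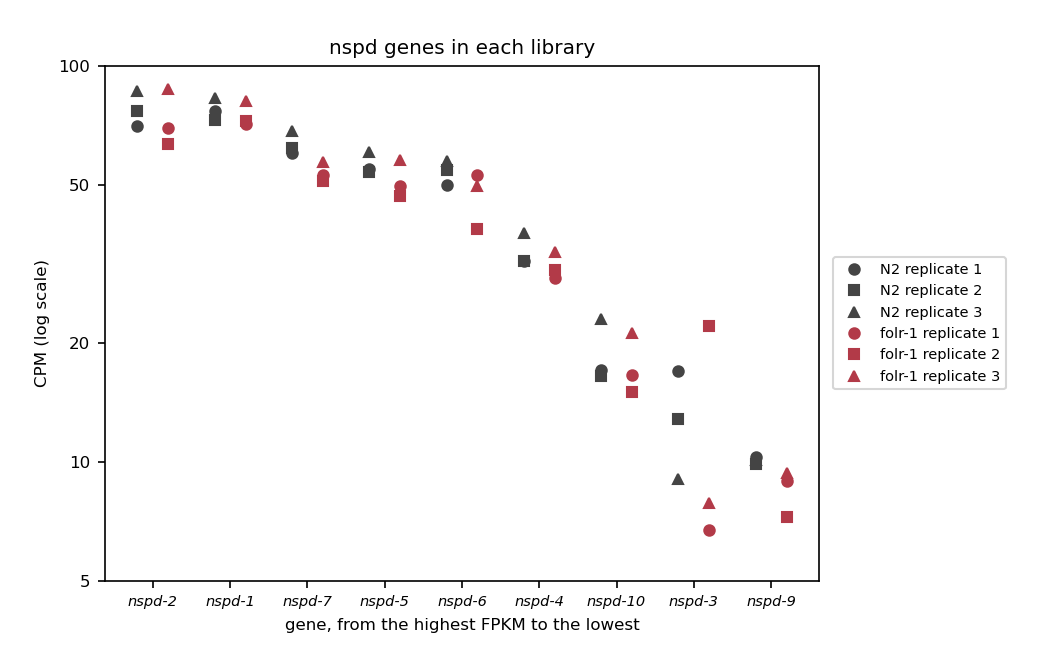
CPM (y axis, log scale) of the 9 tested *nspd* genes in each library, N2 in grey and the mutant in red, with a symbol for each replicate number. The triangles of replicate 3 are highest in both strains for 6 of the 9 genes, and *nspd-3* is highest in mutant replicate 2, at 22.0 CPM.

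Several *nspd* genes moved together between libraries of a strain. In 6 of the 9, replicate 3 was the highest library in both strains, which was so for 2 of the 32 other tested members, for 11.5% of all tested genes and for 21.5% of those under 500 bases. *nspd-3* varied most. It had 370, 285 and 229 counts in N2 and 172, 531 and 169 in the mutant, so that mutant replicate 2 held the highest and the other mutant libraries the lowest values. Its within-strain coefficient of variation was 30.5% in N2 and 69.8% in the mutant, where the median of all members was 8.14%. In mutant replicate 2 it was at 3.02 times the mean of mutant replicates 1 and 3, a ratio reached by 3 of 12564 genes with at least 50 counts on average in the mutant, itself included. With all libraries its log2 fold change was -0.072 ± 0.32 SE (adjusted p = 0.931, edgeR), and without mutant replicate 2 it was -0.82 (adjusted p = 0.0184, edgeR).

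The members were spread unevenly over the genome, which the rule did not use. Of the 42, 18 lie on chromosome I (42.9%), 13 on chromosome IV (31.0%) and 0 on the X chromosome, which hold 16.3%, 17% and 14.1% of all tested genes placed on one of the 6 chromosomes. The called members were spread over 3 of these. *fer-1* lies at chrI:8623012-8631202, *spe-15* at chrI:1446497-1465358, *spe-9* at chrI:11582743-11586069, *nspd-7* at chrIV:10268975-10269187 and *spe-6* at chrIII:11505488-11508930 (WBcel235). The median log2 fold change was -0.15 for the 17 tested members on chromosome I and -0.066 for the 13 on chromosome IV. It was -0.14 for the 3 on chromosome II, -0.24 for the 3 on chromosome III and -0.24 for the 5 on chromosome V. Across the 41 tested members, Spearman's rho of fold change was -0.175 with gene length and 0.000 with mean FPKM, where rho with length over all tested genes was -0.075. These are descriptions across genes of the same 6 libraries.

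Other genes of sperm development were also mostly below their N2 level. Of 40 such genes, all tested, 4 fell, 0 rose and 35 were below 0, against 3.32%, 3.64% and 49.3% of all tested genes. The median of the 40 was -0.11. Those that fell were *alg-3*, an Argonaute of spermatogenesis, *fog-3*, which commits germ cells to the sperm fate, and *ssp-10* and *ssq-2*, of small sperm-specific families. *fog-3* had 77, 73 and 94 counts in N2 and 59, 57 and 28 in the mutant (log2 fold change -0.80 ± 0.21 SE, adjusted p = 0.0246, edgeR). Of the 31 genes of the major sperm protein, the main cytoskeletal and signalling protein of nematode sperm, 30 were tested, 1 fell, 0 rose and 24 were below 0. Their median was -0.066 and their summed level in the mutant was 0.961 of that in N2. Scaled to these genes in place of all genes, the members' median was -0.070 and *fer-1* alone was called. This scaling raised all genes, with the median of all tested genes at 0.061 and 273 genes called lower in place of 512.

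Marker genes of other tissues and of the other germ cell fate were read beside the sperm genes. Of 12 genes used by both germ cell fates, 0 were called by edgeR at a median of -0.016, with 3 of them lower and 0 higher at an unadjusted p under 0.05. Of 14 oocyte and eggshell genes, 1 fell and 1 rose at a median of -0.013, and of 6 somatic gonad genes 0 were called by edgeR at a median of -0.088, with 1 lower and 0 higher at an unadjusted p under 0.05. Of the 7 male genes tested, *lov-1*, *pkd-2* and *mab-3* fell and 0 rose, with *cwp-4*, *cwp-5* and *klp-6* at log2 fold changes of 0.12, -0.028 and -0.047. The remaining one, *cil-7*, had 31, 17 and 18 counts in N2 and 11, 8 and 10 in the mutant. It was not called (log2 fold change -1.22 ± 0.38 SE, adjusted p = 0.0653, edgeR). Among untested male genes, *cwp-1* had 7, 4 and 7 counts in N2 and 0, 0 and 0 in the mutant, and *cwp-2* 10, 4 and 6 against 1, 1 and 1. *trf-1* had 5, 3 and 5 against 2, 4 and 8, and *cwp-3* 2, 2 and 1 against 1, 0 and 0. The summed level of all 11 male genes was 7.81 to 9.45 CPM in N2 and 3.73 to 4.93 CPM in the mutant, of which *mab-3* held 4.05 CPM in N2 and 2.02 CPM in the mutant on average. The largest change among them was that of *lov-1*, a gene of male sensory neurons, with 13, 13 and 21 counts in N2 and 2, 2 and 0 in the mutant. Of 4 body wall muscle genes, *unc-54* fell (log2 fold change -0.29 ± 0.043 SE, adjusted p = 4.12e-04, edgeR) and 0 rose. All 4 were below 0, with a median of -0.11, and 2 were lower and 0 higher at an unadjusted p under 0.05. In 3 the mutant libraries were all below the N2 libraries, against 12.9% of all tested genes. The summed level of the 4 muscle genes in the mutant was 0.864 of that in N2. Of this sum *unc-54* held 5607 of 9321 CPM in N2 and 4598 of 8057 CPM in the mutant on average. Of 4 intestinal genes, *ifb-2* rose (log2 fold change 0.18 ± 0.044 SE, adjusted p = 0.0186, edgeR) and all 4 were above 0. The part of these differences in the lower level of the sperm genes was not tested.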

How the data were processed

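RNA from whole L4 larvae was sequenced from 3 libraries per strain. Per the submitters' processing notes, the authors used fastp, HISAT2 and featureCounts with WBcel235. They deposited raw counts per gene and FPKM values, which carry 1 scaling factor per library. The labels describe both directional and non-directional library preparation. Symbols were taken from the WBcel235 annotation, which matched 46180 of 46661 genes.

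Tests on the counts were run in edgeR 4.0.16 under R 4.3.3 (filterByExpr, TMM, glmQLFit and glmQLFTest, strain as the only term), and P-values were adjusted over all 15432 tested genes by Benjamini and Hochberg, two-sided. The precision is limited by the 3 libraries per strain; the common biological coefficient of variation was 0.0498. Alternatives used DESeq2 1.42.0 and limma 3.58.1. In simulated counts of this comparison with 200 genes changed by 1.25-fold, edgeR recovered 114 with 11 false calls, and with 2-fold changes 198 with 13. The changed genes were drawn only from those with at least 50 counts on average. The recovery therefore does not cover genes with fewer counts, such as *spe-36* and *spe-38*, or changes below 1.25-fold. For 1 gene alone, the exact permutation test of 3 against 3 libraries cannot go below p = 0.1. Each called member reached this value, as does any gene whose libraries do not overlap between strains.

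The members and gene lists were chosen with earlier results of these data known. Genes named were the called members, the most abundant of each role, the 3 largest changes each way, the untested one and those whose call depended on 1 library. Others near the threshold, or given as ends of a range or by known role, were named after their values had been seen. Values of 2 members are not reported here singly, and the counts and medians include them. No sequences were printed.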

Additional observations from a re-analysis of the deposited data

How the results depend on the processing

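No member was called higher under any of the 22 settings run. These include the main fit, and the stricter threshold and the added RefSeq names reuse its results, so they could not add a higher member. Of all tested genes, 512 were lower in the comparison as reported. The 5 members called lower became 3 with DESeq2 under its own or TMM size factors (418 and 416 of all genes), 3 with limma on log2(FPKM + 1) or log2(FPKM + 0.1) (268 and 274), 1 (*fer-1*) when scaled to the summed major sperm protein counts (273), 8 with no filter on low counts (752 of 23348), and 0 with an adjusted p under 0.005 and a log2 fold change beyond 1 (138). Leaving out 1 library gave 2 to 6, the fewest without N2 replicate 3 (*fer-1* and *spe-15*). Of 18 alternatives each, *spe-15* kept its call in 17, *fer-1* in 16, *nspd-7* in 15, *spe-6* in 9 and *spe-9* in 6. The call of *fer-1* was lost with limma on either FPKM scale (adjusted p = 0.0574 and 0.06, limma). Those fits called *nspd-7*, *spe-15* and *spe-6*. The median log2 fold change of the members was -0.070 when scaled to the major sperm protein genes, which moved the median of all genes to 0.061 and the higher calls from 561 to 924, and -0.16 to -0.10 with 1 library left out. A correction for gene length gave 7 lower members (426 of all genes), with the log2 fold changes of *fer-1* and *spe-15* reduced to -0.34 and -0.17. With 2 alternatives added after seeing the data, the number lower was 5 with 7 genes named *spe* or *nspd* by RefSeq alone added and 4 with near-identical copies summed.

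Deviations of same-numbered libraries correlated at -0.023, -0.045 and 0.013, and those of differently numbered ones at -0.018 to 0.041. With 3 libraries per strain, these values cannot settle whether the replicate numbers pair the libraries. With a replicate block 4 members were lower: *spe-6* and *spe-9* were lost (adjusted p = 0.0598 and 0.0724, edgeR) and *spe-18* was gained (0.0433). With length correction and the block 6 were lower.

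Directions near 0 turned. *gsp-3* was at -0.013 with the length correction, -0.014 with the block as well, and -0.016 to 0.036 with 1 library left out, where *nspd-2* was at -0.23 to 0.0006, *nspd-3* at -0.82 to 0.23 and *spe-11* at -0.071 to 0.0038. *spe-11* was at 0.026 under major sperm protein scaling, below the median of all genes under that scaling. The causes were not tested. *spe-36* and *spe-38*, with under 50 counts in every library, had standard errors of 0.23 and 0.28. Even the fitted log2 fold change of -0.65 for *spe-38* was not called (adjusted p = 0.188, edgeR), so changes well above 1 standard error could be missed for them.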

Other observations

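RefSeq gives *spe* or *nspd* names to 7 further genes that have other symbols in WBcel235. Of these, 5 were tested and 0 were called (edgeR), with 0 also at an unadjusted p under 0.05 and a median log2 fold change of -0.14. The highest of them was C09B9.4 (*spe-55*), with 574, 590 and 753 counts in N2 and 697, 583 and 510 in the mutant, and the lowest fold change was that of Y37E11AR.7 (*spe-40*), at -0.35 ± 0.20 SE (adjusted p = 0.345, edgeR). T26H5.12 (*nspd-12*) had 0 counts in every library and ZK337.6 (*nspd-11*) had at most 3.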
